A study of Mus musculus with 2 samples.

Results

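The genes described here are those of MHC class II antigen presentation and of leukocytes in mouse liver: Cd74, H2-Aa, H2-Ab1, H2-Eb1, Ptprc, Cd3e, Cd79a, Nkg7, S100a8 and S100a9. They are 10 of the 19465 genes measured, and were chosen by name. Liver sections of 5 μm, fixed in formalin, were put on 10x Visium slides from a pair of naïve, untreated female littermates of 8 weeks, 1 with wild-type AEG-1 (AEG-1-WT, here WT) and 1 with the C75S mutant (AEG-1-C75S, here C75S). C75S mice carry a knock-in, made with CRISPR/Cas9, in which the cysteine at position 75 of AEG-1 is serine, so that all cells of the animal carry it and not the hepatocytes alone; whether the sectioned mouse had 1 or both alleles changed is not given in the sources used here. AEG-1 is a membrane protein of the endoplasmic reticulum that is known as an oncogene in liver cancer, and the comparison asks how that single residue alters the liver.

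Class II MHC molecules show peptides from engulfed material to CD4+ T cells. H2-Aa encodes the alpha chain of I-A, H2-Ab1 its beta chain and H2-Eb1 the beta chain of I-E, while Cd74, the invariant chain, holds new class II molecules in shape and guides them to the compartment where peptides are loaded. In a healthy liver these genes are known from dendritic cells, B cells and some macrophages, and dendritic cells gather in the portal tracts beside the bile ducts, whereas Kupffer cells, the resident macrophages, line the sinusoids. Ptprc encodes CD45, the phosphatase on all leukocytes, Cd3e is a chain of the T cell receptor complex, Cd79a a chain of the B cell receptor, Nkg7 a granule protein of natural killer and cytotoxic T cells, and S100a8 and S100a9 are the subunits of calprotectin, a calcium-binding protein of neutrophils and monocytes.

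The class II genes share promoter elements, named the X and Y boxes, on which the factor CIITA acts. The promoters of H2-Aa and H2-Eb1 are printed because these were the class II genes of the 10 with a promoter window available. Whether the motifs bear on their counts over spots, given further on, was not tested. Each sequence holds the 150 bases directly before the start of transcription in RefSeq, from build GRCm38.p6, 5′ to 3′ on the strand of the gene, with the X box core GCAAC and the Y box CTGATTGG in capitals. H2-Aa lies on the minus strand at chr17:34287824-34287973 and H2-Eb1 on the plus strand at chr17:34305717-34305866.
H2-Aa: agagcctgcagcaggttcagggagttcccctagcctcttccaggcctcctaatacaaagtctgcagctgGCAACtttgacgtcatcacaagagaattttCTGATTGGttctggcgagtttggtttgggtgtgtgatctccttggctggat
H2-Eb1: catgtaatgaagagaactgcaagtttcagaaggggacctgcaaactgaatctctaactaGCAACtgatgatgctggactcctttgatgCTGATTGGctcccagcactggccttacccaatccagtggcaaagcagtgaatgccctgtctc
GCAAC began 81 bases before the start of H2-Aa and 91 bases before that of H2-Eb1, and CTGATTGG began 51 and 62 bases before. Between the motifs lay 25 bases in H2-Aa and 24 in H2-Eb1. Among 32851 RefSeq promoter windows of 300 bases, searched on both strands, GCAAC occurred in 35.2% and CTGATTGG in 4.10%. Both motifs in this order, 24 or 25 bases apart, occurred in 5 windows (0.0152%), those of H2-Aa, H2-Eb1, H2-Eb2, H2-Oa and Stard7. The letters and the spacing were read from the pair itself, and a match is a description and not a shown binding site. Of the 10 genes, 8 had a window in the table, Cd74 and H2-Ab1 being the others; Cd3e, Cd79a, Nkg7, Ptprc and S100a9 held neither motif and S100a8 held GCAAC only.

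A Visium spot is a small region of tissue that holds several cells, in liver mostly hepatocytes, so no spot is a leukocyte and a level is the sum over all cells on the spot. After spots with more than 50000 UMIs (unique molecular identifiers, 1 per captured probe pair) were left out, 2309 of 2316 WT spots with 42246988 UMIs and 2163 of 2167 C75S spots with 41674347 UMIs remained, with medians of 16830 and 18808 UMIs per spot. Levels are in CPM, the UMIs of a gene per 1000000 UMIs of the spots summed. The 95% interval printed with each ratio is the exact binomial one for the pair of sums, and it covers counting error only. With 1 mouse per genotype there was no replicate and no test, spots are not replicates, and a ratio compares these sections and not the genotypes. Probes differ between genes, so levels were not compared from gene to gene. As a scale of stray counts, 14 of 15 genes of other organs had at most 1 UMI in the whole WT section and at most 3 in that of C75S. The exception, Gfap, known also from stellate cells, had 26 and 39. The tissue matched its label, with 6 hepatocyte markers holding 178495 CPM in WT and 182741 CPM in C75S.

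Over the whole sections, the class II genes differed little. Cd74 had 15451 UMIs (366 CPM) in WT and 15796 UMIs (379 CPM) in C75S, a log2 ratio of 0.05 (0.02 to 0.08). H2-Aa had 4587 UMIs (109 CPM) in WT and 4259 (102 CPM) in C75S, at -0.09 (-0.15 to -0.03). By the section totals used here, these are differences of a few percent, in opposite directions for the chaperone and the alpha chain. H2-Ab1 counted 3160 and 3076 UMIs, or 74.8 and 73.8 CPM, with a log2 ratio of -0.02 (-0.09 to 0.05). H2-Eb1 counted 1907 and 1825 UMIs, or 45.1 and 43.8 CPM, at -0.04 (-0.14 to 0.05). For both beta chains the interval spans 0, and the 4 genes summed came to 594 CPM in WT and 599 CPM in C75S (log2 ratio 0.01, -0.01 to 0.04).

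The calprotectin genes differed most. S100a8 had 72 UMIs in WT (1.70 CPM) and 137 in C75S (3.29 CPM), a log2 ratio of 0.95 (0.53 to 1.38). S100a9 had 144 UMIs (3.41 CPM) against 302 (7.25 CPM), a log2 ratio of 1.09 (0.80 to 1.38). Their sum went from 5.11 to 10.5 CPM (1.04, 0.80 to 1.28). After every spot was thinned to 3000 UMIs, S100a9 had 19 and 41 UMIs (1.20), while S100a8 had 16 and 17 (0.18) and was no longer 1.5-fold apart.

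The other leukocyte genes differed less. Ptprc had 1341 UMIs (31.7 CPM) in WT and 1565 (37.6 CPM) in C75S, a log2 ratio of 0.24 (0.14 to 0.35). Cd79a had 268 UMIs (6.34 CPM) and 325 (7.80 CPM), at 0.30 (0.06 to 0.54). Both were higher in C75S by more than counting error and by less than 1.5-fold. For Cd3e (151 and 177 UMIs, 3.57 and 4.25 CPM) the ratio was 0.25 with an interval of -0.07 to 0.57. For Nkg7, the sparsest gene with 48 and 41 UMIs (1.14 and 0.984 CPM), it was -0.21 with -0.85 to 0.42, so that no difference was detectable at this depth for either. In bulk regions such as these, more cells of a type and more RNA per cell cannot be told apart.

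Counted over the 10 genes, 2 (S100a8 and S100a9) were at least 1.5-fold higher in C75S and 0 at least 1.5-fold lower. Of the 12004 genes whose UMIs in the pair of sections came to 50 or more, 2.29% were that much higher and 5.2% that much lower, with a median log2 ratio of -0.05. Beyond counting error, 5 of the 10 were higher and 1, H2-Aa, lower, beside 16.3% of those 12004 genes higher and 29.7% lower by the same measure. Totals without the 20 most abundant genes raised every log2 ratio between the sections by 0.04 and TMM factors by 0.06, so a ratio this close to 0, as for H2-Ab1 and H2-Eb1, has no settled sign. The interval of H2-Aa ends at -0.03, nearer to 0 than either shift, so its call as lower rests on the totals used.

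**Figure D1:**
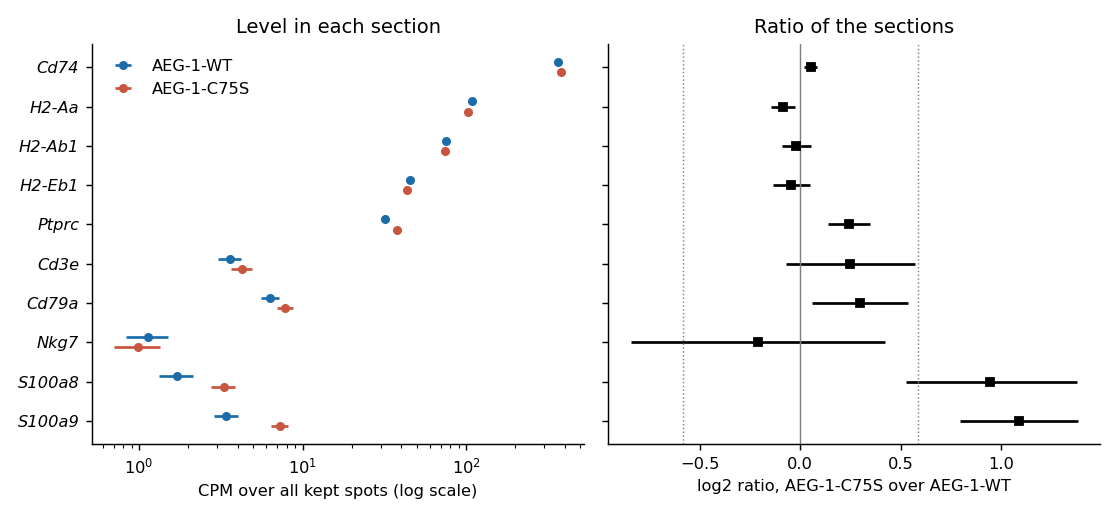
Left, the level of each of the 10 genes in CPM over all kept spots (log axis), with WT in blue, C75S in red and bars for 95% exact Poisson intervals; right, the log2 ratio of C75S over WT with its 95% counting interval and dotted lines at 1.5-fold. The class II genes lie close to 0 (-0.09 to 0.05), and S100a8 and S100a9, at 0.95 and 1.09, are the only ones past the dotted lines.

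Genes of other cells moved beside these values, and their part in them was not tested. All 8 Kupffer cell markers were higher in C75S beyond counting error (summed 1350 CPM in WT and 1761 in C75S), beside 16.3% of all genes, and 1 of the 8, the scavenger receptor Marco (1.62), was at least 1.5-fold higher. Among them were C1qa, a complement subunit (230 and 288 CPM), and Cd5l, a secreted macrophage protein (414 and 560 CPM). Of 11 other pan-leukocyte genes, 8 were higher and 0 lower beyond counting error, beside 16.3% and 29.7% of all genes, and 0 were past 1.5-fold, with a sum of 278 and 351 CPM and a median log2 ratio of 0.32. Examples are Fcer1g, the common chain of Fc receptors (0.53), Laptm5, a lysosomal protein (0.32), and Tyrobp, a signalling adaptor (0.30). Ptprc, at 0.24, was thus close to the other genes of leukocytes. The 7 portal fibroblast markers went the other way, all 7 lower beyond counting error and 6 of them past 1.5-fold (174 and 84.7 CPM, median -1.48), among them Col1a1 at -1.58 and Gsn at -1.24. All 4 red blood cell markers were lower too, 2 of them past 1.5-fold, at 627 and 416 CPM. Monocyte and macrophage genes summed to 181 and 179 CPM. Of the 8 with enough UMIs, Lyz2, which encodes lysozyme, and Adgre1, which encodes F4/80, were at least 1.5-fold higher (0.75 and 0.62), beside 2.29% of all genes. As the sum was near level, this pair does not stand for the list. Chemokine and adhesion genes summed to 483 and 437 CPM, and of 9 the B cell chemokine Cxcl13 alone was past 1.5-fold, with 138 UMIs in WT and 436 in C75S (1.68, 1.40 to 1.97). Of 7 cholangiocyte markers (302 and 274 CPM), Krt7, Krt19 and Cldn7 were at least 1.5-fold lower (-1.06, -0.69 and -0.98), beside 5.2% of all genes. Spp1, of the same list, had 4558 UMIs in WT and 3352 in C75S. The remaining markers are not given here, so these genes do not stand for the list. Stellate cell markers were at 605 and 750 CPM and sinusoidal endothelial markers at 573 and 584 CPM, each with 0 of 6 past 1.5-fold.

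Around S100a8 and S100a9, the rest of the neutrophil genes did not share one direction. Of 12, 3 had enough UMIs: Csf3r, the G-CSF receptor, was at 196 and 251 UMIs (0.38, 0.10 to 0.65), Il1b at 228 and 221 (-0.03, -0.30 to 0.25), and Mmp9, a gelatinase, at 94 and 69 (-0.43, -0.90 to 0.04). The defining markers were at or near 0 in both sections, with Ly6g at 0 and 1 UMI, Ltf at 0 in both, Camp at 1 in each and Retnlg at 11 in each. Of the 8 other genes of the S100 family and its receptors, 1, the receptor Ager, was at least 1.5-fold higher in C75S (21 and 40 UMIs). The 3 with most UMIs, S100a1 (-0.21), S100a10 (0.07) and S100a13 (0.06), were within 1.5-fold.

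Of 18 other genes of the class II pathway, 0 were 1.5-fold apart between the sections. The transactivator Ciita had 219 UMIs in WT and 232 in C75S (0.10, -0.17 to 0.38). H2-DMa, a chain of the peptide editor, had 893 and 859 UMIs (-0.04, -0.17 to 0.10). The proteases Ctss (0.24), which trims the invariant chain, and Lgmn (0.26) were higher by more than counting error, with UMIs of 4533 and 5271 and of 7627 and 9008. Of 13 class I MHC genes, 11 were lower in C75S beyond counting error, beside 29.7% of all genes, and 0 past 1.5-fold, with a median of -0.18 beside -0.05 over all genes. The 3 most abundant, H2-K1, H2-D1 and B2m, lay at 0.03, -0.05 and -0.02, too close to 0 for a settled sign. The signalling genes of interferon gamma, the cytokine that induces CIITA, were 0 of 11 past 1.5-fold (Irf1 at -0.26, Jak1 at -0.03).

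Among lists of the lymphocyte and dendritic cell genes, the natural killer and cytotoxic list came to 31.6 CPM in WT and 40.1 in C75S. Of 9 genes, 3 were at least 1.5-fold higher, beside 2.29% of all genes that much higher and 5.2% that much lower. The granzymes Gzma (175 and 268 UMIs, 0.63) and Gzmb (87 and 137 UMIs, 0.67) and the pore-forming Prf1 (18 and 50 UMIs, 1.49) were the 3, whereas Nkg7, of the same cells, was not. T cell genes summed to 35.4 and 39.3 CPM with 1 of 13, the costimulatory receptor Icos, at least 1.5-fold higher (70 and 105 UMIs). B and plasma cell genes summed to 96.4 and 104 CPM with 1 of 13, Mzb1, higher (23 and 35 UMIs, 0.63, -0.17 to 1.45) and 1, Jchain, the joining chain of IgA and IgM, lower (149 and 90 UMIs, -0.71). Dendritic cell genes were at 51.2 and 51.5 CPM, with 1 of 11, Cd209a, lower (-1.01).

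The class II genes were not spread evenly over the spots. Cd74 was counted in 97.3% of WT spots and 97.0% of C75S spots, or 61.1% and 63.5% when every spot was thinned to 3000 UMIs. H2-Aa was counted in 75.9% and 73.8%, H2-Ab1 in 64.4% and 63.3%, and H2-Eb1 in 46.2% and 48.5%. The median spot held 8 class II UMIs in WT and 9 in C75S, yet the highest held 294 and 304. Variance over spots was 15.5 and 10.8 times that of Poisson sampling for the class II sum, and 1% of spots held 10.4% and 7.44% of all class II UMIs. Such a multiple tends to rise with the count, so it is not compared between unlike counts. H2-Eb1, with 1907 and 1825 UMIs, was at 3.03 and 2.29, and Ptprc, with 1341 and 1565, at 1.19 and 1.15. The sum of S100a8 and S100a9, with only 216 and 439 UMIs, was at 2.87 and 3.51.

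The top spot of WT had 156 UMIs of Cd74, 65 of H2-Aa, 41 of H2-Ab1 and 32 of H2-Eb1 among 25181 UMIs in all. The top spot of C75S had 154, 68, 49 and 33 among 34525. All 4 genes peaked together at nearly the same counts in both sections, and both spots held bile duct markers (26 and 54 UMIs). The spots next in rank had 182 class II UMIs in WT, with 16 bile duct marker UMIs, and 179 in C75S, with 0. So a spot could be rich in class II genes without any bile duct signal.

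**Figure D2:**
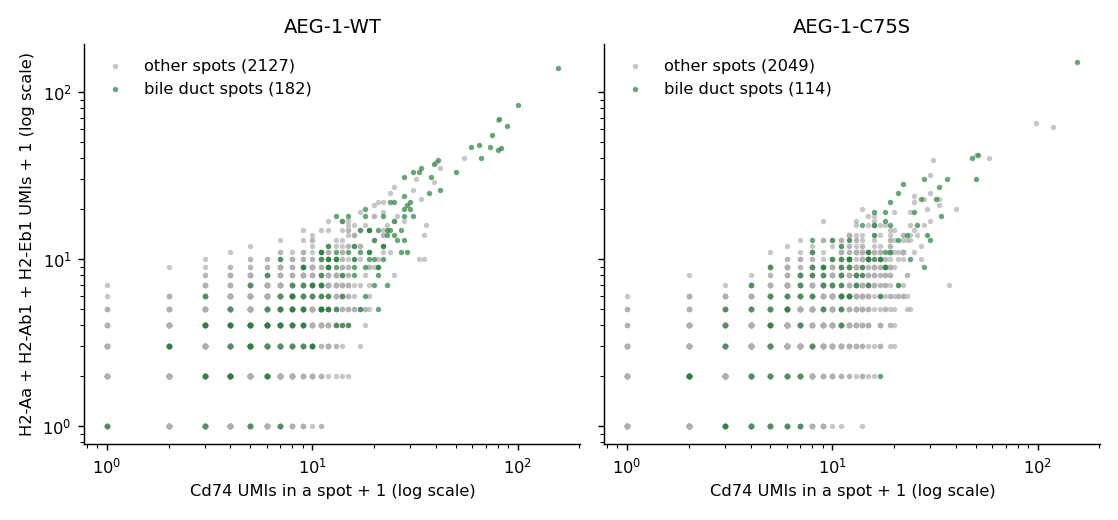
Each point is 1 spot, with its Cd74 UMIs plus 1 on the x axis and the UMIs of H2-Aa, H2-Ab1 and H2-Eb1 summed plus 1 on the y axis, both log scales, in the WT (left) and C75S (right) section; bile duct spots (182 and 114) are green and other spots grey. The counts go up together, and many of the highest WT spots are green, while in C75S grey spots are among the highest.

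Over spots, log values of Cd74 correlated with those of H2-Aa at r = 0.49 in WT (2309 spots) and 0.40 in C75S (2163 spots), and H2-Aa with H2-Eb1, the pair whose promoters are printed above, at 0.39 and 0.28. Spots of a section share a library and differ in depth, and after thinning these values were 0.15 and 0.12 and then 0.18 and 0.10. Cd74 with Ptprc gave 0.20 and 0.16, and Cd74 with S100a9 gave 0.04 and 0.05, values too weak in sparse counts to read.

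S100a8 and S100a9 went with each other. Their log values correlated at 0.36 and 0.41, or 0.16 and 0.12 after thinning, and 17 WT and 44 C75S spots held both. Of the spots with S100a8, 30.9% in WT and 40.7% in C75S also held S100a9, which was in 4.59% and 9.29% of all spots. In each section the highest spot held 13 UMIs of the pair. Thinned to 3000 UMIs, S100a9 was in 0.781% and 1.53% of spots, in the same order as the CPM. The lymphocyte genes were scattered, Cd3e in 5.59% and 7.67% of spots, Cd79a in 10.5% and 13.6% and Nkg7 in 2.04% and 1.85%, beside 1.13% and 1.80% for Gfap.

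Among 6660 genes with at least 500 UMIs in each section, the genes most like the class II sum over spots, by the lower r of the 2 sections, were Tmsb4x (0.51), an actin-binding peptide abundant in leukocytes, Tpt1 (0.29), C1qa (0.27), the protease Ctss (0.25), the leukocyte surface glycoprotein Cd52 (0.24), the bile duct marker Spp1 (0.24), C1qc (0.23) and Laptm5 (0.23). After thinning, Tmsb4x was at 0.24 in WT and 0.23 in C75S and the other 7 at 0.06 to 0.14. For Ptprc with the 3 lymphocyte genes they were Tmsb4x (0.27), Cd52 (0.16), Clec4f, a lectin of Kupffer cells (0.15), C1qc (0.14), Lgmn, C1qa, Cd5l and Tpt1 (each 0.13). These fell to 0.09 and 0.08 for Tmsb4x and to between -0.03 and 0.06 for the other 7 after thinning, too weak to read. For the calprotectin pair no gene passed 0.06, the highest being Ttr, C4bp and S100a11.

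The lobule runs from the portal tract, where blood enters, to the central vein. Within each section spots were ranked by (Cyp2f2 + 1)/(Cyp2e1 + 1), a periportal over a pericentral hepatocyte enzyme, and cut into 5 bins of about equal size, of which bin 1 is the most periportal. The class II sum was highest in bin 2 of both sections. From bin 1 to bin 5 it was 611, 706, 631, 527 and 487 CPM in WT and 531, 701, 619, 590 and 544 CPM in C75S. Both sections rose from bin 1 to bin 2 and then went down to bin 5.

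Bin 1 over bin 5 gave a log2 ratio of 0.33 (0.27 to 0.39) for the class II sum in WT and -0.03 (-0.09 to 0.03) in C75S. Cd74 was at 374 and 299 CPM in these bins of WT (0.32) and at 329 and 347 in C75S (-0.08). H2-Aa (0.32 and -0.04), H2-Ab1 (0.37 and 0.05) and H2-Eb1 (0.38 and 0.22) had the same order of the sections. Bin 2 over bin 5 gave 0.54 (0.48 to 0.60) and 0.37 (0.31 to 0.42), with H2-Eb1 at 0.62 and 0.60. Of the 10 genes, 6 in WT and 8 in C75S had enough UMIs, and none of these was 1.5-fold apart between bins 1 and 5. Over all genes 3.93% were that much higher and 5.88% lower in bin 1 of WT, and 2.73% higher and 5.25% lower in C75S. S100a9 had too few UMIs in WT for this count (15 and 34), yet was lower in bin 1 beyond counting error (-1.18, -2.17 to -0.27). In C75S it was at -0.40 (-1.01 to 0.19). S100a8, with too few UMIs in both sections, was at -0.59 in WT and -0.71 in C75S, with intervals that span 0.

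Bile duct spots, those with 6 or more UMIs of Spp1, Epcam, Krt7 and Krt19 summed, lay mostly in the first 2 bins (159 of 182 in WT and 110 of 114 in C75S). Without them the class II sum from bin 1 to bin 5 was 499, 555, 543, 526 and 487 CPM in WT and 486, 602, 620, 591 and 544 CPM in C75S. The ratio of bin 1 over bin 5 was then 0.04 in WT and -0.16 in C75S. Bin 2 without these spots was still above bin 5 in both sections. Of the bile duct spots, 83 lay in bin 1 of WT. On an axis built from Hal, Gls2, Oat and Cyp1a2, with all spots, bin 1 over bin 5 of WT was 0.06, and with 3 bins in place of 5 the C75S value was 0.14.

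Ptprc was at 29.7, 36.6, 37.8, 27.2 and 26.7 CPM from bin 1 to bin 5 in WT and at 37.9, 40.6, 40.2, 38.6 and 30.4 CPM in C75S. It was lowest in the pericentral bin of both, with bin 1 over bin 5 at 0.15 (-0.12 to 0.43) and 0.31 (0.07 to 0.56). Cd3e, Cd79a and Nkg7 summed had 62 to 117 UMIs per bin in WT and 85 to 125 in C75S, and were lowest in bin 1 of both, at 7.79 and 10.6 CPM. Cd79a, with 31 and 46 UMIs in bins 1 and 5 of WT and 45 and 64 in C75S, gave -0.57 and -0.45, both with intervals that span 0.

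The calprotectin pair was lowest in bin 1, with no steady slope over the other bins of WT. In WT the counts did not separate bin 1 from bin 3. Without bile duct spots bin 3 of WT was the lower (3.26 CPM against 3.34 in bin 1). S100a8 and S100a9 summed had 25, 58, 30, 54 and 49 UMIs from bin 1 to bin 5 of WT (3.14, 6.69, 3.35, 6.18 and 6.18 CPM). In C75S they had 59, 84, 92, 117 and 87 UMIs (7.35, 9.44, 11.5, 14.0 and 10.4 CPM). Bin 1 was at -0.97 (-1.73 to -0.25) and -0.50 (-1.001 to -0.01) against bin 5, and each bin of C75S stood above the same bin of WT. Thinned to 3000 UMIs per spot, the C75S value rested on 14 and 7 UMIs and turned to 0.997.

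**Figure D3:**
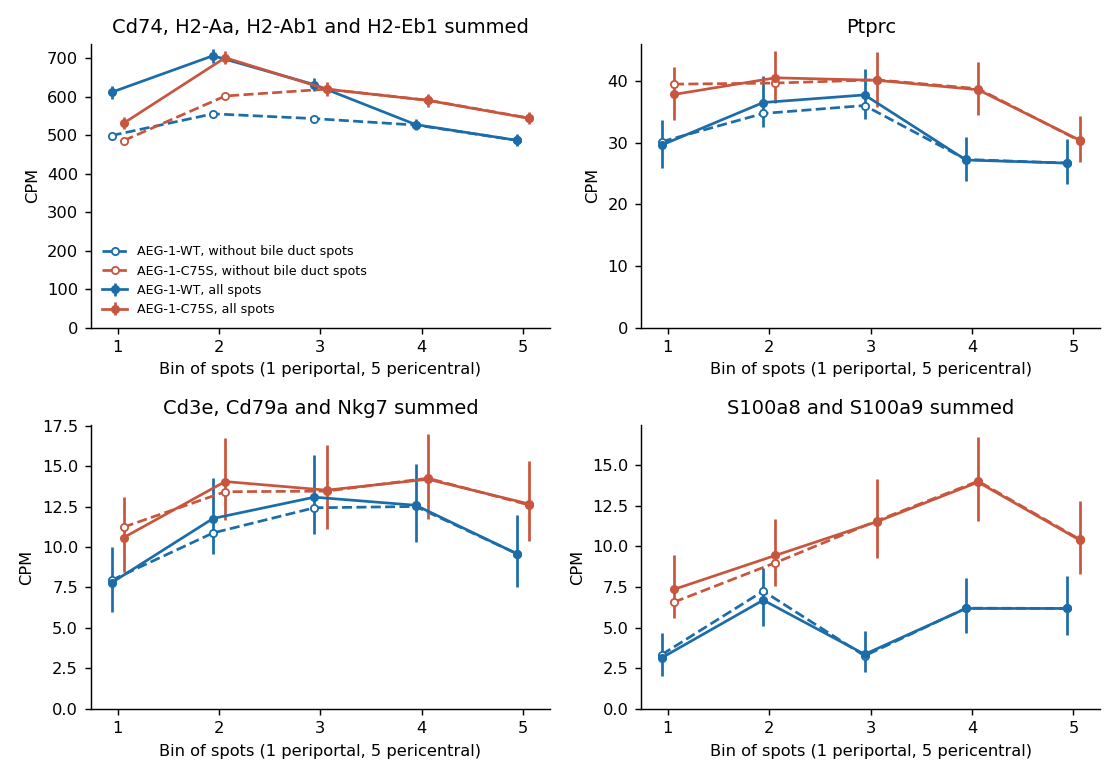
CPM of 4 groups of genes (y axes from 0) in the 5 bins of the lobule axis (x axis, bin 1 periportal, bin 5 pericentral), WT in blue and C75S in red, with bars for 95% exact Poisson intervals; dashed lines with open points leave out the bile duct spots. The class II sum of WT goes from 611 to 487 CPM with all spots and from 499 to 487 without the bile duct spots, and the S100a8 and S100a9 sum of C75S lies above WT in every bin.

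Class II genes stood highest beside the bile ducts. In WT, Cd74 had 752 CPM in the 182 bile duct spots and 324 in the 2127 others, a log2 ratio of 1.22 (1.16 to 1.27). H2-Aa had 228 and 95.7 CPM (1.25, 1.15 to 1.36), H2-Ab1 168 and 64.7 (1.38, 1.25 to 1.5002) and H2-Eb1 111 and 38.1 (1.54, 1.38 to 1.69). All 4 were more than 2-fold higher, with H2-Eb1 the farthest up.

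In C75S, Cd74 had 577 CPM in 114 bile duct spots and 365 in the 2049 others, a log2 ratio of 0.66 (0.58 to 0.73). H2-Aa was at 184 and 96.5 CPM (0.93, 0.79 to 1.06), H2-Ab1 at 151 and 68.4 (1.14, 0.99 to 1.29) and H2-Eb1 at 93.7 and 40.3 (1.22, 1.02 to 1.41). The order of the 4 genes was that of WT and each ratio was smaller. The sum was at 1259 and 522 CPM in WT (1.27, 1.22 to 1.31) and at 1005 and 570 in C75S (0.82, 0.76 to 0.87). Leaving out the 10 spots with most class II UMIs in each section gave 0.89 and 0.55.

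The leukocyte genes had smaller ratios than the class II genes, with Ptprc and Cd3e higher in the bile duct spots of WT by more than counting error. The difference between the groups of genes was not tested. Ptprc was at 39.3 and 30.9 CPM in WT (0.35, 0.10 to 0.58) and at 37.0 and 37.6 in C75S (-0.02, -0.33 to 0.27). Cd3e had 23 UMIs in the bile duct spots of WT, at 5.58 CPM against 3.36 (0.73, 0.03 to 1.38), and 14 UMIs in those of C75S (0.29). Cd79a was level in both (-0.01 and -0.10), and Nkg7 had 5 UMIs and 1 UMI there. The calprotectin pair had 15 UMIs in the WT bile duct spots (3.64 CPM against 5.27; -0.53, -1.40 to 0.22) and 31 in those of C75S (11.3 against 10.5; 0.12, -0.46 to 0.64), so that neither section showed a difference beyond counting error.

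Of 9 genes with enough UMIs, 5 were at least 1.5-fold higher and 1, S100a8 (4 UMIs in bile duct spots, -0.88, -2.79 to 0.54), at least 1.5-fold lower in the bile duct spots of WT, beside 13.3% and 2.15% of all genes. In C75S it was 4 higher and 0 lower, beside 8.13% and 4.13%. The 4 class II genes are in both counts, and Cd3e is the other gene of the WT count. Bile duct spots were deeper than the others, with medians of 19606 and 16648 UMIs in WT and 25169.5 and 18599 in C75S, which a threshold in UMIs favours. When spots were instead chosen by 2 or more marker UMIs after thinning to 3000, a choice added after the data had been seen, the class II sum was at 1.45 and 1.14.

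Spots with 12 or more marker UMIs had the highest class II levels in both sections. With 0, 1, 2 to 3, 4 to 5, 6 to 7, 8 to 11 and 12 or more marker UMIs in a spot, the class II sum of WT was 485, 537, 564, 615, 652, 907 and 1635 CPM. That of C75S was 543, 563, 595, 713, 674, 676 and 1399 CPM. Spots just outside and just inside the threshold (615 and 652 CPM, 713 and 674 CPM) differed little beside the last step, and the spots with 12 or more numbered 101 in WT and 50 in C75S. In WT the level went up at each step, and in C75S it did not go up between 4 to 5 and 8 to 11. Ptprc in the spots with 12 or more was at 44.7 and 46.6 CPM, against 30.3 and 35.6 CPM in spots without marker UMIs.

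**Figure D4:**
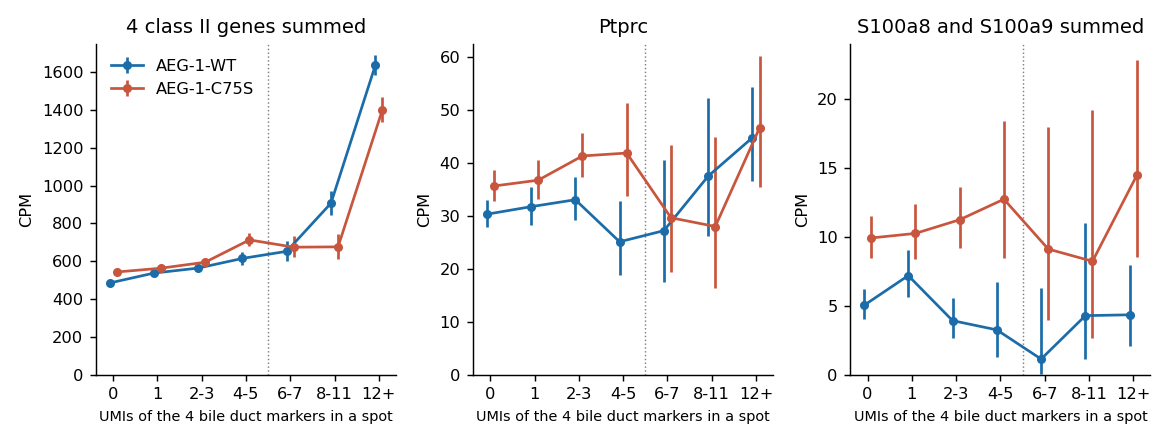
CPM (y axes from 0) of the class II sum, Ptprc and the S100a8 and S100a9 sum in spots binned by their UMIs of the 4 bile duct markers (x axis), WT in blue and C75S in red, with bars for 95% exact Poisson intervals and a dotted line at the threshold of 6 UMIs. The class II sum reaches 1635 and 1399 CPM in the last bin, while the bars of Ptprc overlap through most of the range and the calprotectin bars are wide.

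The class II mixture shifted in the bile duct spots. Cd74 made up 59.7% of class II UMIs there in WT and 57.4% in C75S, against 62.0% and 64.0% in other spots, and H2-Eb1 8.79% and 9.32% against 7.29% and 7.06%. Ciita was higher there as well, at 16.5 CPM in bile duct spots and 3.96 in others of WT (2.06, 1.62 to 2.48) and at 10.98 and 5.19 in C75S (1.08, 0.48 to 1.64). Of 17 other class II pathway genes with enough UMIs, 5 were at least 1.5-fold higher in each section, beside 13.3% of all genes in WT and 8.13% in C75S. They were Ciita, H2-DMa (0.87 and 0.63), H2-Oa (1.97 and 1.03) and H2-Ob (1.02 and 1.19) in both, with H2-DMb2 (0.81) in WT and H2-DMb1 (0.60) in C75S. H2-Oa and H2-Ob encode the inhibitor of the peptide editor, and the interval of H2-Oa in C75S spans 0. The proteases Ctss (0.04 and -0.08), Ctsl (0.00 and -0.03) and Lgmn (-0.09 and -0.11) and the class I genes (summed 4000 against 4031 CPM, and 3820 against 3872) were near level.

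Cells other than cholangiocytes stand in the portal tract, and markers of some were also higher in the bile duct spots. For T cell genes, Igkc and Ighm this held chiefly in WT. The part of these cells in the result was not tested. Dendritic cell genes were at 93.4 against 46.7 CPM in WT (5 of 7 genes at least 1.5-fold higher) and at 69.9 against 50.3 in C75S (2 of 6). Over all genes, 13.3% were that much higher in WT and 8.13% in C75S. Irf8, a factor of dendritic cells, was at 1.02 and 0.59, and Clec9a, a receptor of the cross-presenting kind, at 0.95 (0.56 to 1.33) and 0.40 (-0.19 to 0.93). T cell genes were at 59.2 against 32.8 CPM in WT (8 of 10 genes) and at 41.4 against 39.2 in C75S (1 of 10, near the share over all genes). Among B and plasma cell genes, Igkc, the kappa light chain, was at 1.18 and 0.14 and Ighm, the IgM heavy chain, at 0.89 and -0.05. This pair does not stand for the list of 13, and Cd79a was level (-0.01 and -0.10). Kupffer cell markers were lower in the bile duct spots of both sections (1168 against 1369 CPM, and 1549 against 1776; 6 of 8 beyond counting error in each, beside 7.7% and 6.83% of all genes). Portal fibroblast markers were at 773 against 109 CPM in WT (7 of 7 genes) and at 274 against 71.4 in C75S (5 of 6), and cholangiocyte markers, partly those that chose the spots, at 1056 against 221 and 933 against 227.

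Set side by side, the sections differed in opposite directions in the 2 kinds of spots. The class II sum of C75S over WT was at -0.32 (-0.39 to -0.26) in bile duct spots and at 0.13 (0.10 to 0.15) in the others. In bins 1 to 5 it was at -0.20, -0.01, -0.03, 0.16 and 0.16. Cd74 was at -0.38 in bile duct spots (3099 UMIs in WT and 1576 in C75S) and at 0.17 in other spots, H2-Aa at -0.31 and 0.01, H2-Ab1 at -0.16 (-0.34 to 0.02) and 0.08, and H2-Eb1 at -0.24 and 0.08. In other spots the intervals of H2-Aa (-0.05 to 0.08) and H2-Eb1 (-0.02 to 0.19) span 0, and that of H2-Ab1 starts at 0.0007. Cd74 made up 61.5% of all class II UMIs in WT and 63.3% in C75S. For Cd74 and the sum, the near equality over the whole sections thus held opposite differences in these groups of spots. These groups of spots were not alike in the sections. Bile duct spots were deeper in C75S (median 25169.5 UMIs) than in WT (19606), which a threshold in UMIs favours. Spots with 12 or more marker UMIs were 101 of 182 in WT and 50 of 114 in C75S. The class II sum of WT was 652, 907 and 1635 CPM at 6 to 7, 8 to 11 and 12 or more marker UMIs. That of C75S was 674, 676 and 1399 CPM. The share of spots past the bile duct threshold was 7.88% (6.82 to 9.06%) in WT and 5.27% (4.37 to 6.30%) in C75S by exact binomial intervals. These intervals treat spots as separate draws, though spots are not replicates, so they do not measure a difference between the sections. Portal fibroblast markers were lower in C75S in the same spots (773 and 274 CPM), and how much portal tract each section crossed cannot be told apart from the genotype.

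For the calprotectin pair the sections differed in one direction throughout. C75S over WT was at 1.23 (0.53 to 1.96), 0.50 (-0.00 to 1.01), 1.78 (1.17 to 2.42), 1.18 (0.70 to 1.67) and 0.75 (0.23 to 1.29) in bins 1 to 5, at 1.64 (0.71 to 2.64) in bile duct spots and at 0.99 (0.74 to 1.24) in the others. S100a9 alone was above 0 by its interval in every bin (0.65 to 1.70). S100a8 was so in bins 3 and 4 (1.97 and 1.13), with 8 to 20 UMIs per bin in WT. Ptprc was at 0.35, 0.15, 0.09, 0.51 and 0.19 from bin 1 to bin 5, with intervals above 0 in bins 1 and 4 only, and at -0.09 (-0.46 to 0.28) in bile duct spots.

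**Figure D5:**
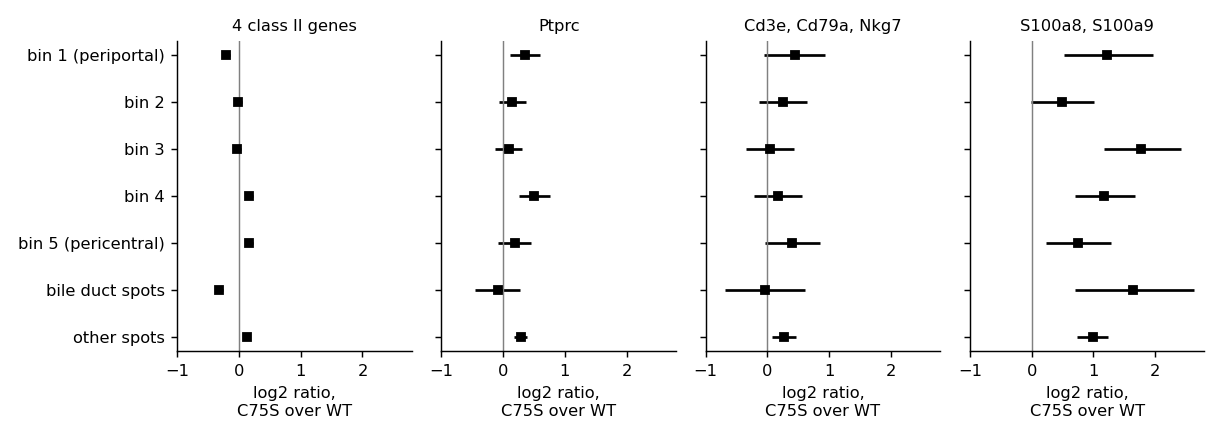
Log2 ratio of C75S over WT (x axis) for 4 groups of genes in the 5 bins, the bile duct spots and the other spots (y axis), with bars for the 95% counting intervals, which for the class II genes are about the size of the points. The class II sum is at -0.32 in bile duct spots and 0.13 in other spots, and the S100a8 and S100a9 sum is at 0.50 or above in each region.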

How the data were processed

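RNA was measured on liver sections of 1 WT and 1 C75S mouse. The deposited tables hold the count of UMIs per gene and spot, which the authors derived by aligning reads to mm10 and its probe set in Space Ranger 2.0.1, without normalization. The submitters' processing notes also name Seurat 4.3.0. No column of another sample was present (0). Spots with more than 50000 UMIs were left out, as in the methods. Spot coordinates were not used here.

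UMIs were summed over spots and scaled to CPM with pandas 2.3.3, scipy 1.17.1 and numpy 2.4.6 under python 3.11.15; figures used matplotlib 3.10.9, and TMM factors came from edgeR 4.0.16 in R 4.3.3. Intervals at 95% are exact Poisson for sums and Clopper-Pearson for shares and ratios. A gene was compared with the background at 1.5-fold with at least 50 UMIs over both groups. Correlations over spots used log2 of UMIs per 10000 plus 1, and thinning drew 3000 UMIs per spot, with seed 1. The interval code was tested on simulated data.

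Named were the 10 genes, Ciita, and the 8 genes most like each group over spots. Of each of 20 other lists, the 3 genes with most UMIs were set to be named, but many of them are not given in the text. Genes that make up a small count, and the genes of the class II pathway and of the neutrophil list given besides, were named after their values were seen. Of the listed genes, H2-Ea, Ifi30, Rac2, Ly6c2, Ccl19, Ccl21a and Hba-a1 were not analysed here. The genes and lists were chosen with earlier results of these data known, and the motif letters after the promoters had been read. Alternatives were other totals, thinning, equal weight per spot, other axes and bins, other thresholds for bile duct spots, matched totals, and 1 choice of spots added after the data had been seen. With 1 section per genotype no test was made.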

Additional observations from a re-analysis of the deposited data

Results flagged for a closer look

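Opposite directions in 2 kinds of spots marked Cd74 and the class II sum, of whose UMIs Cd74 made up most. In bile duct spots the log2 ratio of C75S over WT was -0.38 for Cd74 and -0.32 for the class II sum, and in other spots it was 0.17 and 0.13. Along the lobule it was -0.18 for Cd74 and -0.20 for the sum in bin 1, 0.20 and 0.16 in bin 4, and 0.21 and 0.16 in bin 5. Bin 1 over bin 5 for Cd74 was 0.32 in WT and -0.08 in C75S. Each of these intervals lies on one side of 0 by counting error, but that of Cd74 along the axis in C75S ends at -0.0006. Of 8 alternatives for that value, 3 changed its sign, so it has no settled sign. With 1 section per genotype the difference between the regions or sections was not tested.

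The spots with more than 50000 UMIs, which enter no comparison, held H2-Ab1 at 118 CPM in WT (44 UMIs on 7 spots), above the 74.8 CPM of the kept spots, and at 45.8 CPM in C75S (10 UMIs on 4 spots). Cd74 there was at 310 CPM in WT and 321 CPM in C75S, below the kept spots. The class II sum there was at 589 CPM in WT and 518 CPM in C75S, beside 594 and 599 CPM in the kept spots. H2-Eb1, with 9 and 16 UMIs there, was at 24.2 CPM in WT and 73.3 CPM in C75S, beside 45.1 and 43.8 CPM.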

How the results depend on the processing

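No paired analysis was possible because each genotype had 1 section, and for the same reason there was no replicate to leave out. Over all alternatives, 402 values of single genes and small sums stayed within their interval, 122 left it and 10 were counted as reversed. Of the main sums and counts 48 stayed and 38 moved. The 10 changed sign, but they are not all the sign changes. Between sections, Cd3e (0.25), H2-Ab1 (-0.02) and H2-Eb1 (-0.04) are not among the 10. They reached -0.12, 0.08 and 0.08 in an alternative. The cause of the moves was not tested.

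For the class II sum between sections (0.01), totals without the 20 most abundant genes gave 0.0554, TMM factors 0.0674, centring on the median gene 0.0636, spots outside the bile duct 0.13, bile duct spots alone -0.32 and spots weighted to the same total UMIs -0.0382. Bile duct spots alone also gave 1.64 for the S100 sum, whose other alternatives kept it at 0.82 to 1.16, and turned Cd74 to -0.38, Ptprc to -0.0888 and the lymphocyte sum to -0.0327, while H2-Aa turned to 0.0123 without those spots.

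Bin 1 over bin 5 for the class II sum in WT (0.33) was 0.20 without the 10 spots with most UMIs, 0.41 with 10 bins, 0.0631 on the axis from Hal, Gls2, Oat and Cyp1a2, and 0.0367 without bile duct spots, where H2-Aa was at -0.00646. In C75S (-0.03) it was 0.0498 with equal weight per spot, -0.14 without the 10 spots, 0.14 with 3 bins, 0.13 with 10 bins and -0.16 without bile duct spots. Cd74 in C75S was 0.00275 with equal weight, 0.0897 with 3 bins and 0.0546 with 10 bins, and the S100 sum 0.997 after thinning.

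Bile duct over other spots for the class II sum (1.27 in WT, 0.82 in C75S) was 1.40 and 1.03 after thinning, 1.40 and 0.98 with equal weight, 0.89 and 0.55 without the 10 spots, 1.01 and 0.64 at 4 or more marker UMIs, 1.58 and 1.19 at 10 or more, 1.51 and 1.33 at 2 or more UMIs of Epcam, Krt7 and Krt19, 1.33 and 1.15 by share of UMIs, 1.34 and 1.05 against the rest of bin 1, and 1.45 and 1.14 for spots chosen after thinning. Cd3e in WT turned to -0.0232 with Epcam, Krt7 and Krt19. Genes of the 10 at least 1.5-fold higher in C75S numbered 1 after thinning (S100a9, with S100a8 at 0.18), and in its bile duct spots 7 after thinning, 2 without the 10 spots and 7 with Epcam, Krt7 and Krt19. After thinning, the leukocyte genes but Ptprc had at most 5 UMIs each in those spots. Over all thinned C75S spots, Cd3e had 25 UMIs, S100a8 17, S100a9 41 and Nkg7 5. These totals are below the minimum of 50 UMIs set for comparing a gene with the background. The thinned count of 7 is therefore not read as more leukocyte genes being higher there. No share over all genes is given beside these counts. The 7 with Epcam, Krt7 and Krt19 is thus not read as more of the 10 genes being higher either.

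Depth limits Nkg7, Cd3e and S100a8 most, with 41 to 177 UMIs per section, and S100a9 in WT, with 144 UMIs (302 in C75S). Having 1 mouse per genotype limits every difference between sections.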

Other observations

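The 5% of spots with the most Cd74 per UMI were 116 in WT and 109 in C75S. Of these, 48 (41.4%) in WT and 23 (21.1%) in C75S were bile duct spots, beside 7.88% and 5.27% of all spots. They were shallower than the others, with medians of 15808.5 and 16901 UMIs in WT and 13891 and 19045 in C75S. The folds below are therefore not compared between the sections. As the spots were chosen by Cd74, what they hold is a description. The other class II genes were 5.03- to 6.87-fold higher there in WT and 4.14- to 4.63-fold in C75S. Dendritic cell genes were 3.25- and 2.57-fold higher, T cell genes 2.58- and 2.30-fold, Cd3e 3.80- and 2.73-fold, Ptprc 2.25- and 1.93-fold, and Kupffer cell markers 1.15- and 1.29-fold. Portal fibroblast markers were 12.9-fold higher in WT and 3.32-fold in C75S. For the S100a8 and S100a9 sum, with only 10 and 19 UMIs there, the folds were 0.975 (0.461 to 1.83) and 1.09 (0.65 to 1.72). These intervals are too wide to call the sum level. Other neutrophil genes, with 50 and 20 UMIs there, were 2.05-fold higher in WT beyond counting error. In C75S they were at 0.871-fold (0.528 to 1.36). B and plasma cell genes were 1.21- and 3.44-fold higher, and in C75S 280 of the 364 UMIs of Igkc and 17 of the 22 UMIs of Jchain in these spots came from a single spot.

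Cxcl13, a chemokine that draws B cells, had 138 UMIs in WT and 436 in C75S (log2 ratio 1.68, 1.40 to 1.97), while Cd79a differed by 0.30.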
